A study of Mus musculus with 2 samples.

Results

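The data describe 10 genes that p53 is known to switch on for cell cycle arrest and stress feedback, namely Cdkn1a, Mdm2, Ccng1, Zmat3, Sesn1, Sesn2, Btg2, Plk2, Plk3 and Gdf15. They were taken by gene symbol, although the set was chosen with earlier results of these data known. All 10 had a row among the 25668 genes of both libraries. RNA was sequenced from organoids of mouse fallopian tube (oviduct) epithelium, as 1 control library (genotype label WT) and 1 library with Trp53, the mouse gene of p53, knocked out (genotype label Trp53 KO). Both were grown in conditioned medium, per their treatment labels, and the control organoids were derived from a Gt(ROSA)26Sortm1 mouse whose CAG promoter drives Cas9 and EGFP. The sources used here do not give the age of the mouse, the guide, the content of the medium, or whether the knockout organoids came from the same animal or from 1 clone. With 1 library per genotype there was no replicate and no test between genotypes, so every difference below is between these 2 libraries.

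p53 is a transcription factor that is held at a low level in resting cells and accumulates after DNA damage and other stress. Its targets include an inhibitor of cyclin-dependent kinases that stops the cell cycle, and the ubiquitin ligase Mdm2, which marks p53 for destruction and so closes a negative feedback loop. In the fallopian tube, p53 loss is known as an early event in the lesions from which high-grade serous ovarian carcinoma can arise.

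To show what the starts of these genes look like, RefSeq windows of 300 bases (GRCm38.p6), from 250 bases before to 50 bases after a transcription start, were searched for a p53 response element. That element was taken as 2 copies of its 10-base consensus unit with the central C and G of each unit intact, a spacer of 0 to 13 bases and at most 2 mismatches in all. The consensus is its own reverse complement, so 1 scan covers both strands. The motifs TGACGTCA (the cyclic AMP response element, also its own reverse complement), CCAAT and TATAAA were searched on both strands, and all were chosen after the sequences had been seen. Windows were matched for 9 of the 10 genes, all but Zmat3. The windows of Cdkn1a and Ccng1 are shown because they hold the closest matches to the p53 element, those of Btg2 and Plk2 because they hold TGACGTCA, and that of Plk3 because Plk3 was the 1 gene of the 10 with a higher value in the knockout library. Capitals mark the motif matches. The windows lie at chr17:29090729-29091028 on the + strand (Cdkn1a, the upstream of 2 starts), chr11:40755237-40755536 on the - strand (Ccng1), chr1:134079106-134079405 on the - strand (Btg2), chr13:110394794-110395093 on the + strand (Plk2) and chr4:117133914-117134213 on the - strand (Plk3).
Cdkn1a: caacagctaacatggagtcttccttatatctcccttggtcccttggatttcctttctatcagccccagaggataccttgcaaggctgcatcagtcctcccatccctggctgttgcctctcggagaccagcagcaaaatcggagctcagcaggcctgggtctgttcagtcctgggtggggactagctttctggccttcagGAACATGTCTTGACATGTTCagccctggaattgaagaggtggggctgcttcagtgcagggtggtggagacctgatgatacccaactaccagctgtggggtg
Ccng1: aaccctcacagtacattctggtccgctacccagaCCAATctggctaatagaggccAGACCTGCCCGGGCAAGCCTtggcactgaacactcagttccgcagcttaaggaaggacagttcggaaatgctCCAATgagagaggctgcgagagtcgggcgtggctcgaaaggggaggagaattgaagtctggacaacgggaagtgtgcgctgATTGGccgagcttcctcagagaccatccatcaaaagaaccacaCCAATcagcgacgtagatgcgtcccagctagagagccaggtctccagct
Btg2: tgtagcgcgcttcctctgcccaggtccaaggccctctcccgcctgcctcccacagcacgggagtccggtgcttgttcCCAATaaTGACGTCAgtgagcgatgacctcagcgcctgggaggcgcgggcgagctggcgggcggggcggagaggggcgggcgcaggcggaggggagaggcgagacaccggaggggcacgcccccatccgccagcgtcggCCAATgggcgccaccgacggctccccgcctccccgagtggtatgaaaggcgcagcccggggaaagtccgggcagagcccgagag
Plk2: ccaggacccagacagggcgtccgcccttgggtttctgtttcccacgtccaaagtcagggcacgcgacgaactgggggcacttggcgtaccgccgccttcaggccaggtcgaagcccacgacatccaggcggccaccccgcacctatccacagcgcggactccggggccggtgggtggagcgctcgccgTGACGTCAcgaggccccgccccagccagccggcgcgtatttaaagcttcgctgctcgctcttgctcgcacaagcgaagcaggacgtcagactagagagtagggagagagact
Plk3: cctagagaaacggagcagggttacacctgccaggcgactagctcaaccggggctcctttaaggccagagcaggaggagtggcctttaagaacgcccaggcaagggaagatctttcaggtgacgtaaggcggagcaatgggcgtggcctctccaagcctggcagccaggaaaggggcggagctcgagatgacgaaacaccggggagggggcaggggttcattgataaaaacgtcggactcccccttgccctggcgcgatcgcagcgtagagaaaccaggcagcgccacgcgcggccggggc

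The Cdkn1a window held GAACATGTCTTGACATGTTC at positions -51 to -32 from its start, 2 consensus units without a spacer and with 1 mismatch. The Ccng1 window held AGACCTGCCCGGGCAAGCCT at -195 to -176, also without a spacer and with 1 mismatch. A match this close stood in 22 of 32851 windows of all genes (0.0670%). A looser match, with a spacer of 3 bases and 2 mismatches, stood in 1 of the 2 Sesn1 windows at -186 to -164. With any allowed spacer and up to 2 mismatches the element stood in 3 of the 9 genes with a window, against 4.71% of all genes with one (4.09% of windows). TGACGTCA, at -166 to -159 in Btg2 and at -62 to -55 in Plk2, stood in 1.79% of all windows. CCAAT was found in 6 of the 9 genes, against 41.1% of all genes, and TATAAA in 0, against 15.7% (37.4% and 13.6% of windows). The 9 genes all had a mean of at least 1 TPM over both libraries. Of the 9017 such genes with a window, 3.58% held TGACGTCA, 43.4% CCAAT, 8.66% TATAAA and 4.66% the p53 element. The Plk3 window, the window at the second Cdkn1a start and 1 of the 2 Gdf15 windows held none of the 4 motifs. A match describes letters in this window only, and many response elements lie outside it.

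Trp53 itself was at 83.2 TPM in control organoids and at 2.42 TPM in knockout organoids. TPM counts reads per gene length, scaled to a total of 1000000 in each library. The Trp53 values correspond to 9256 and 80 reads, and the knockout value was 2.91% of the control value, with a counting interval of 2.30% to 3.62%. The interval here and below is an exact Clopper-Pearson interval at 95% on recovered reads and covers counting error only. The targeted gene was thus low in the library labelled Trp53 KO, although the sources do not say which part of it was cut. The control library was deeper, with an estimated 100099420 reads against 27688214.

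Other cell types were checked by marker lists. The epithelial markers Epcam, Cdh1, Krt8, Krt18 and Krt19 were present in both libraries, summing to 8398 TPM (control) and 12957 TPM (knockout). Of these 5, 1 was higher by 2-fold or more and 0 were lower, and their median difference was -0.19. Stromal and endothelial markers summed to at most 0.181 TPM in either library, with Col1a2 and Emcn at 0 in both. Of 6 immune markers, Cd68 and Csf1r were above 1 TPM in the control library and only Cd68 in the knockout library, with Cd3e and Cd79a at 0 in both. All 8 multiciliated cell markers were lower by 2-fold or more in knockout organoids (summed 220 and 60.4 TPM), where Tppp3, Dynlrb2, Ccdc153 and Deup1 were listed at 0. All 6 markers of basal and stratified epithelium were higher by 2-fold or more (summed 4.72 and 3008 TPM). Of 6 secretory markers 3 were lower, 0 higher (summed 1294 and 1475 TPM). Of all genes with a mean of at least 1 TPM, 15.3% were lower by 2-fold or more and 8.35% higher. The smooth muscle markers Myh11, Des and Cnn1 stood below 1 TPM in both libraries, and Acta2 was at 1.07 and 17.8 TPM. The part of this shift in cell type markers in the values of the 10 genes was not tested, and in bulk RNA fewer cells of a type and less RNA per cell cannot be told apart.

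Of the 10 genes, 9 had a lower TPM in knockout than in control organoids, a direction shared by 60.1% of all measured genes, and 1, Plk3, had a higher one. All 10 reached a mean of 1 TPM over both libraries, the minimum for a measured gene, as did 11228 genes in all. On the scale of log2(TPM + 1), 7 of the 10 were lower by 2-fold or more (Ccng1, Btg2, Cdkn1a, Zmat3, Gdf15, Sesn1 and Plk2) and 0 were higher by that much, against 15.3% of all measured genes lower and 8.35% higher. At 4-fold or more, 4 of the 10 were lower and 0 higher, against 5.89% and 2.38% of all measured genes. The median difference of the 10 genes was -1.68, against -0.17 for all measured genes. Rescaling the libraries by their median ratio moved the median of all genes to -0.01 and that of the 10 genes to -1.53, and the split of all calls from 1715 lower and 937 higher to 1461 and 1191. Quantile normalization gave 1321 lower and 1292 higher. Together the 10 genes summed to 1030 TPM in control organoids and to 237 TPM in knockout organoids.

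**Figure D1:**
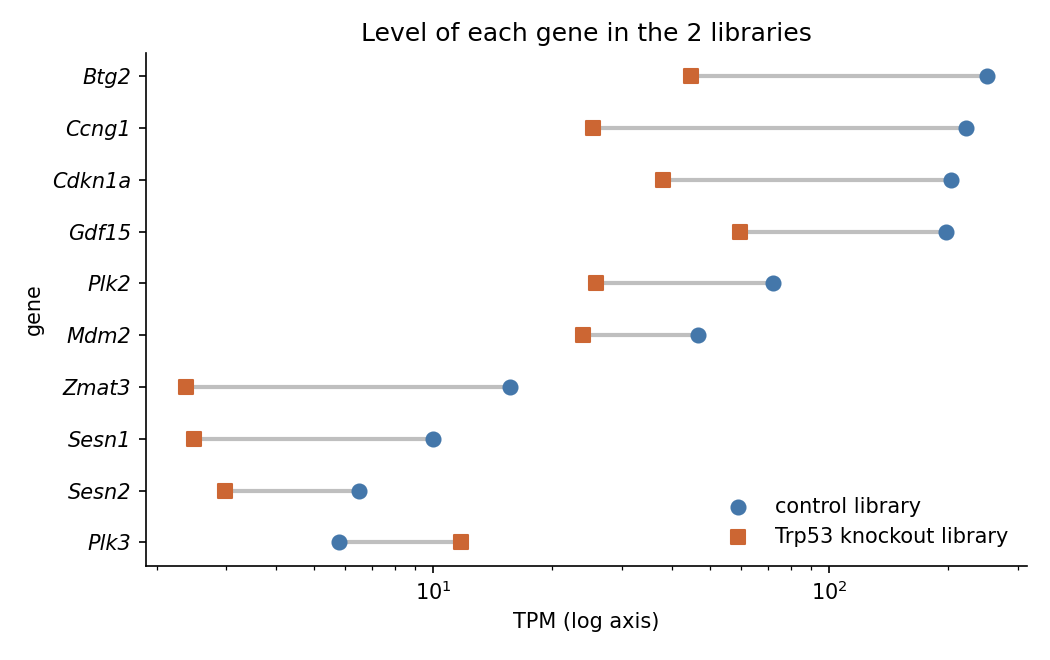
TPM of each of the 10 genes (log axis) in the control library (circles) and the Trp53 knockout library (squares), ordered by the control value, 1 library each. The square lies left of the circle for 9 genes and right of it for Plk3 only, and Btg2 has the highest control value at 251 TPM.

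Levels spanned 43.4-fold among the 10 genes in the control library, from Plk3 at 5.78 TPM to Btg2 at 251 TPM. In the knockout library they spanned 25.2-fold, from Zmat3 at 2.37 TPM to Gdf15 at 59.6 TPM. The 4 most abundant in the control were Btg2, Ccng1, Cdkn1a and Gdf15, at ranks 544, 631, 683 and 700 of 11228. In the knockout library the order of these 4 was Gdf15, Btg2, Cdkn1a and Ccng1, at ranks 1982, 2511, 2851 and 3740. Gdf15 thus moved from the fourth to the first place among the 10.

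The direct regulators of p53 and its feedback loop come first. Mdm2, the ubiquitin ligase that degrades p53, stood at 46.6 TPM in control and 23.9 TPM in knockout organoids, from 8729 and 1330 reads. The knockout value was 51.3% of the control value, with a counting interval of 48.4% to 54.3% that includes a 2-fold difference. Mdm2 was thus 1 of the 2 genes with the smallest decrease, and its log2 difference of -0.94 was lower than that of 83.4% of measured genes. Ccng1, cyclin G1, an atypical cyclin that recruits a phosphatase to Mdm2, had the largest decrease of the 10. Control organoids had 222 TPM (46428 reads) and knockout organoids 25.3 TPM (1572 reads), which is 11.4% of the control value with an interval from 10.8% to 11.98%. Its log2 difference of -3.08 put it below 97.8% of measured genes, so the 2 feedback genes differed widely in the size of their decrease.

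Among the effectors of arrest, Cdkn1a, which encodes p21, an inhibitor of cyclin-dependent kinases, was at 203 and 38.1 TPM, from 32841 and 1831 reads. The knockout value was 18.8% of the control value (interval 17.9% to 19.7%), with a log2 difference of -2.38. Btg2, an antiproliferative protein that recruits the deadenylase complex to messenger RNAs, was at 251 and 44.8 TPM, from 40972 and 2176 reads. Its knockout value was 17.9% of the control value (interval 17.1% to 18.7%), and the intervals of Btg2 and Cdkn1a overlapped. Zmat3, a zinc finger protein that binds RNA and controls splicing, was at 15.6 and 2.37 TPM, from 7515 and 339 reads. It stood at 15.2% of the control value (interval 13.6% to 16.9%), between Ccng1 and Btg2. The gap between its interval and that of Btg2 (0.169 against 0.171 as ratios) is narrow and rests on an implied length of 8092 bases, where GENCODE M21 has 7797, so their order is not settled. All 3 genes thus stood between 15.2% and 18.8% of their control level, although Zmat3 was far less abundant than the other two.

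The 2 polo-like kinases of the set differed in direction. Plk2, a kinase of centriole duplication and synaptic signalling, was at 72.3 and 25.7 TPM, from 12049 and 1273 reads, or 35.6% of the control value (interval 33.5% to 37.7%). Plk3, a kinase of the stress response, was at 5.78 and 11.8 TPM, from 818 and 495 reads. Its TPM was 2.04-fold higher in the knockout library, with an interval of 1.82 to 2.28 that includes 2-fold, and its log2(TPM + 1) difference of 0.91 stood just under the 2-fold line, which it passed under 4 other settings (1.01 to 1.16). The intervals of the 2 kinases lay on opposite sides of no difference. By level, Plk3 was the least abundant of the 10 in control organoids and the seventh in knockout organoids.

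The sestrins are stress proteins that restrain the growth kinase mTORC1 by binding the GATOR complexes. Sesn1 was at 9.997 and 2.48 TPM, from 2360 and 174 reads, or 24.8% of the control value (interval 21.1% to 29.0%). Sesn2 was at 6.48 and 2.98 TPM, from 1340 and 183 reads, or 46.0% of the control value (interval 39.2% to 53.7%). Both were lower, and their intervals did not overlap. The larger decrease was that of Sesn1, but with the chromosome median subtracted the differences were -1.48 for Sesn1 and -1.54 for Sesn2. Sesn2 was the 1 member with a ratio under 0.5 that did not reach 2-fold on the log2(TPM + 1) scale, where its difference was -0.91.

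Gdf15, a secreted ligand of the TGF-beta family that is released by stressed cells, was at 197 and 59.6 TPM, from 21706 and 1952 reads. It stood at 30.3% of the control value (interval 28.9% to 31.7%), with a log2 difference of -1.71, and was the most abundant of the 10 in knockout organoids. Its receptor Gfral and the co-receptor Ret had 0.00808 and 0.0994 TPM in control organoids. In knockout organoids Gfral was listed at 0 and Ret at 0.176 TPM, so both lay under the minimum for a measured gene.

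In the order of the ratios, Ccng1 was followed by Zmat3, Btg2, Cdkn1a, Sesn1, Gdf15, Plk2, Sesn2, Mdm2 and Plk3. Neighbours in this order whose counting intervals overlapped were Btg2 and Cdkn1a, Sesn1 and Gdf15, and Sesn2 and Mdm2. For the other neighbours the intervals were separate, but only narrowly so for Zmat3 and Btg2, whose order is not settled. Apart from that pair, this says only that they differed beyond counting error, since spread between cultures was not measured. The interval of the ratio lay wholly beyond 2-fold for 7 genes, and included 2-fold for Sesn2, Mdm2 and Plk3.

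**Figure D2:**
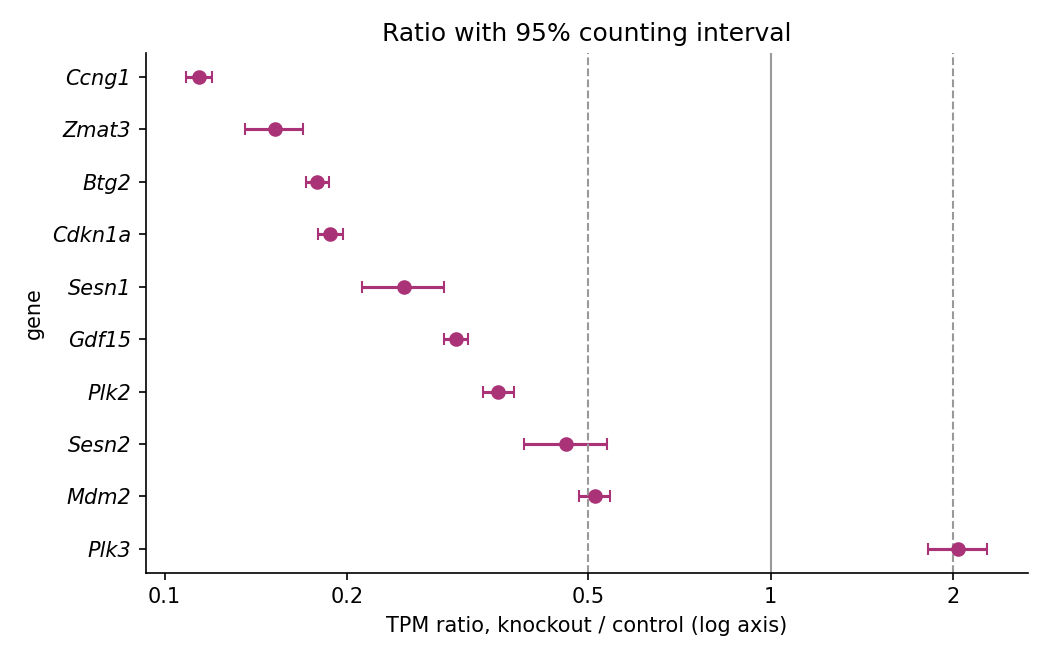
Ratio of TPM in the knockout library to TPM in the control library (log axis) for each gene, with bars for the 95% counting interval, a solid line at no difference and dashed lines at 2-fold. The bars of 7 genes lie wholly below 0.5, those of Sesn2 and Mdm2 cross 0.5, and that of Plk3 crosses 2.

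**Figure D3:**
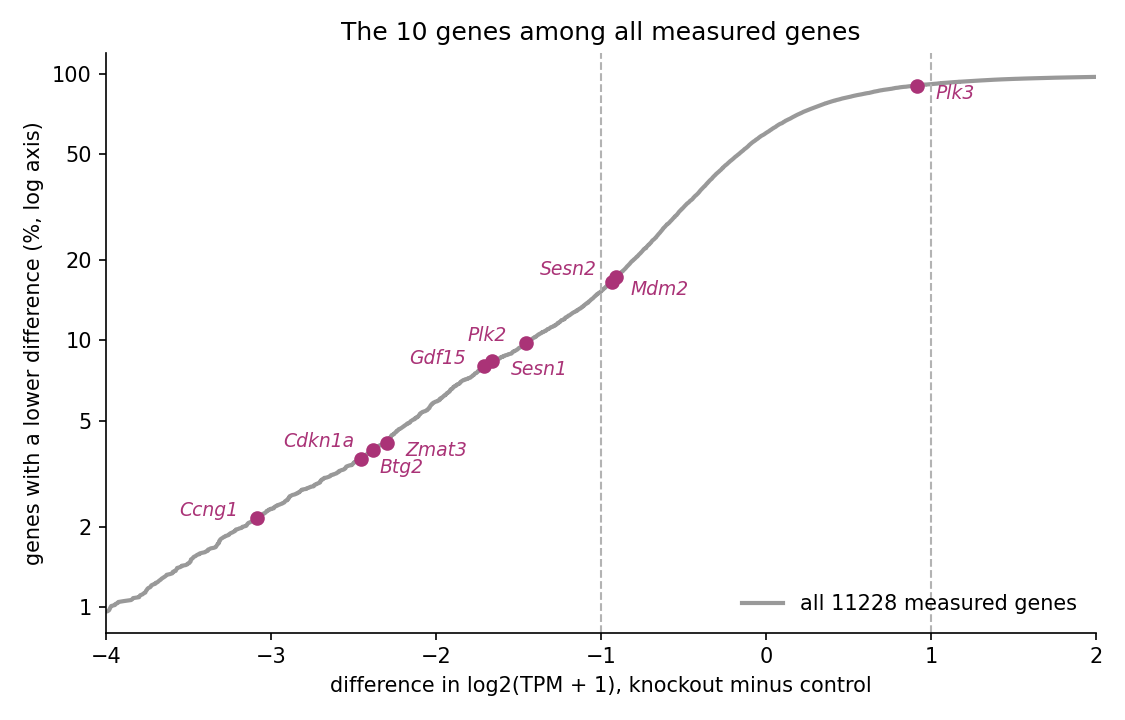
Share of the 11228 measured genes with a lower difference (%, log axis) against the difference in log2(TPM + 1), knockout minus control, with the 10 genes as points and dashed lines at 2-fold. Ccng1 lies lowest, with 2.15% of genes below it, and Plk3 highest, with 90.6% of genes below it.

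Sesn2 and Plk3 are both on chromosome 4, and genes of chromosome 4 were higher in the knockout library as a whole. The median difference over 672 measured genes of chromosome 4 was 0.63. On the 7 other chromosomes that carry the set it was between -0.29 and -0.17. Plk3 stood 0.29 above the chromosome 4 median, and Sesn2 1.54 below it. Among the 10 nearest measured genes of each (5 on either side), the median was 0.86 for Plk3, with 5 of the 10 below Plk3. For Sesn2 the median of the neighbours was 1.04, and 10 of 10 neighbours had a higher difference than Sesn2 itself. Relative to the median of its own chromosome, Sesn2 was thus also past 2-fold, which made 8 of 10 genes lower and 0 higher. Under the same centring 1369 were lower and 974 higher of the measured genes with an annotated chromosome. That is a smaller set than all measured genes. The part of the chromosome 4 shift in the Plk3 value was not tested.

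The other 8 genes stood below the median of their chromosome and of their neighbours. Ccng1, Cdkn1a, Zmat3 and Sesn1 were lower than all 10 of their neighbours, and Btg2, Plk2 and Gdf15 lower than 9 of 10. Mdm2 was lower than 8 of its 10 neighbours, the exceptions being the lysozyme genes Lyz2 (-8.01) and Lyz1 (-7.29), named after their values were seen. For Zmat3 the neighbours lay between -0.77 and 0.45, with 0 past 2-fold. Around Sesn1 the median of the neighbours was -0.78, with 3 of 10 lower by 2-fold or more and 0 higher. Smpd2 (-1.61) and Ppil6 (-1.49), also named after their values were seen, came close to Sesn1 itself (-1.66). Around Btg2, 4 of 10 neighbours were lower by 2-fold or more and 0 higher. This count of lower neighbours was 2 for Mdm2 and Ccng1, and 1 for Cdkn1a, Plk2 and Gdf15.

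**Figure D4:**
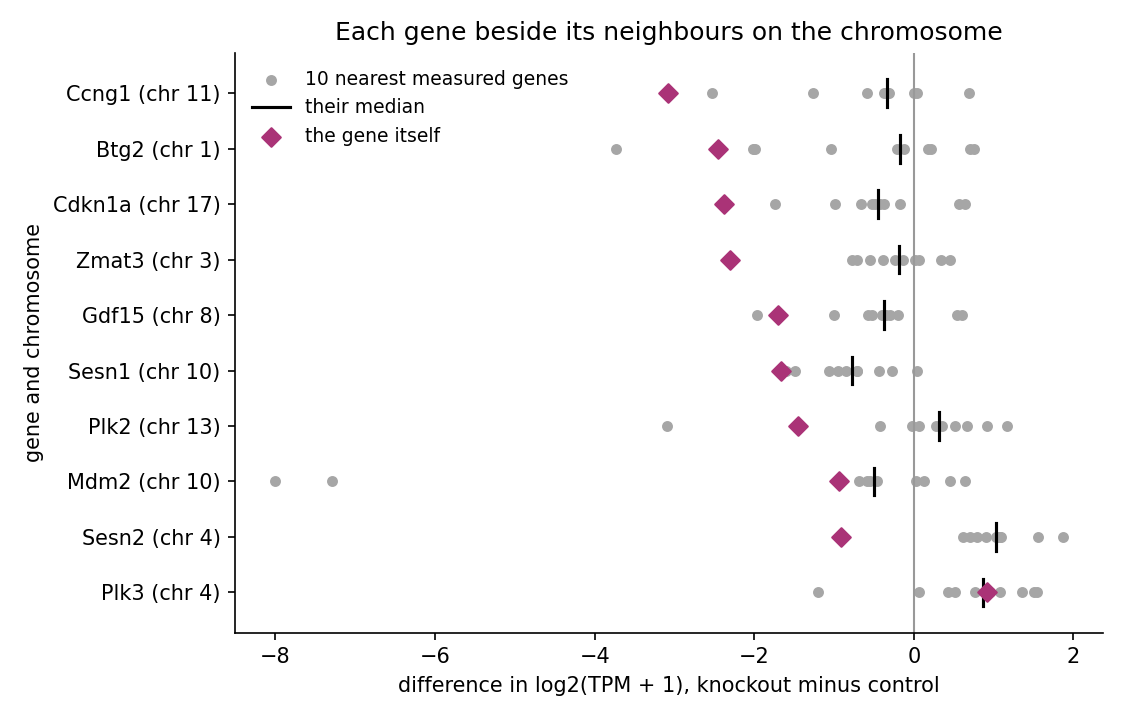
Difference in log2(TPM + 1), knockout minus control, for each of the 10 genes (diamonds), their 10 nearest measured genes on the chromosome (grey points) and the median of those neighbours (black bars). Sesn2 lies left of every neighbour while its neighbours lie right of 0, and Plk3 lies at the median of its neighbours.

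The paralogs of the 10 genes were compared next. Of 16 paralogs 13 were measured, with 1 lower by 2-fold or more and 0 higher, beside 15.3% and 8.35% of all measured genes. Their median difference was -0.19, beside -0.17 for all measured genes. With Zmat1, which was listed at 0 in the knockout library, at its floor of 3 reads, the median log2 ratio of the paralogs was -0.25. The sign of this median turned with quantile normalization (0.15), a mean TPM of at least 5 (0.26) and subtraction of the chromosome median (0.10). The kinase inhibitors Cdkn1b and Cdkn1c, the relatives of p21, had 14.9 and 3.64 TPM in control organoids, and 19.9 and 1.97 TPM in knockout organoids. Mdm4, the partner of Mdm2 in restraining p53, was at 3.67 and 3.10 TPM. Cyclin G2 (Ccng2) was at 10.1 and 15.6 TPM and cyclin I (Ccni) at 128 and 87.4 TPM, neither of them past 2-fold, where Ccng1 was 8.78-fold lower. Sesn3, the remaining sestrin, was at 9.33 and 5.58 TPM. Zmat1 was the 1 paralog past 2-fold, at 2.89 TPM in the control library, and at least 59.6-fold lower in knockout organoids, taken against the floor of 3 reads.

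The antiproliferative relatives of Btg2 also stayed within 2-fold. Btg1 was at 40.9 and 51.5 TPM, and Btg3 at 28.7 and 18.2 TPM. Tob1 and Tob2 had 55.4 and 11.1 TPM in control organoids, and 41.4 and 12.8 TPM in knockout organoids. The mitotic kinase Plk1 was at 33.5 and 55.2 TPM and Plk4, which starts centriole duplication, at 8.42 and 11.4 TPM. Plk5, under the minimum for a measured gene, was at 0.867 TPM in control organoids and listed at 0 in knockout organoids, at least 10.8-fold lower on estimated reads. Among the measured polo-like kinases, Plk2 thus had a lower value and Plk1, Plk3 and Plk4 higher values in knockout organoids. These higher values were all under 2-fold on the scale of log2(TPM + 1).

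Other p53 targets of arrest and feedback did not share 1 direction. Of 12 listed, 10 were measured, 3 were lower by 2-fold or more and 1 was higher, beside 15.3% and 8.35% of all measured genes. Their median was -0.07, or -0.08 as a log2 ratio with values under 3 reads raised to that floor. The sign of this median turned under 4 settings (a mean TPM of at least 5, both rescalings and subtraction of the chromosome median). Gadd45a, a growth arrest protein induced by DNA damage, was at 188 and 46.8 TPM. Trp53inp1, a stress-induced protein that promotes p53 activity, was at 15.1 and 3.26 TPM. It lies on chromosome 4, whose median difference was 0.63. Rprm, which encodes the G2 arrest protein reprimo, had 4.29 TPM in control organoids and was listed at 0 in knockout organoids, at least 36.9-fold lower. Sfn, the 14-3-3 sigma protein of squamous epithelium and of G2 arrest, was at 13.2 and 840 TPM, 63.8-fold higher with an interval of 60.3 to 67.5. Sfn lies on chromosome 4 and moved with the markers of basal and stratified epithelium given above, and their part in its value was not tested.

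Among p53 targets of cell death, 5 of 11 were lower by 2-fold or more and 1 was higher, and the median was -0.72. Eda2r, the ectodysplasin A2 receptor, was at 8.69 and 0.0943 TPM, the death receptor Tnfrsf10b at 16.1 and 4.34 TPM, and Ei24 at 87.2 and 33.0 TPM. Perp, a membrane protein of desmosomes, was the 1 higher, at 175 and 616 TPM. Of 15 p53 targets of DNA repair and metabolism 14 were measured, with 3 lower and 0 higher and a median of -0.65. A pseudocount of 5 or a mean TPM of at least 5 left 1 lower, and quantile normalization gave 4 lower, 2 higher and a median of -0.29. The 3 lower were Dglucy (22.2 and 0.249 TPM), Cpt1c (5.33 and 0.182 TPM) and Ak1, adenylate kinase (5.39 and 0.383 TPM). The next in size, Sco2, a copper chaperone of cytochrome oxidase, was at 23.1 and 11.6 TPM. Over the 3 lists, 11 of 35 measured targets were lower and 2 were higher, beside 15.3% and 8.35% of all measured genes. Their median was -0.54. The lists were drawn up with earlier results of these data known, so these counts are a description.

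The molecules on which these proteins act were read beside them. The 12 cyclins, kinases and the clamp to which p21 binds had a median of 0.78. Of these, 0 were lower by 2-fold or more and 5 were higher, beside 15.3% and 8.35% of all measured genes. Cyclin D2 (Ccnd2) was at 0.710 and 7.96 TPM, cyclin E2 (Ccne2) at 3.95 and 14.9 TPM, Pcna, the sliding clamp of DNA polymerase, at 249 and 714 TPM, and cyclin B1 (Ccnb1) at 33.8 and 73.2 TPM. While p21 messenger RNA was lower, the INK4 group and Cdkn3, which also restrain cyclin-dependent kinases, showed 3 of 5 higher, 0 lower and a median of 1.22. Cdkn2a was at 74.6 and 361 TPM, Cdkn2b at 19.1 and 58.1 TPM, Cdkn3 at 8.12 and 20.2 TPM, and Cdkn2d at 7.79 and 16.1 TPM. Cdkn2a, Cdkn2b and Ccne2 lie on chromosome 4 and Pcna on chromosome 2, whose median difference was 0.20.

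Among the p53 regulators, 13 of 14 were measured, with a median of 0.21. Of these, 2 were lower and 3 higher, beside 15.3% and 8.35% of all measured genes. The 2 lower were Trp53 and Hipk2, a kinase that phosphorylates p53 (chosen after its value was seen, at 2.97 and 0.643 TPM). The 3 higher were Trp63, the p53 relative of basal cells, at 0.0280 and 16.0 TPM, Cdkn2a, and Rpl11, a ribosomal protein that can bind Mdm2, at 1499 and 3810 TPM. Rpl11 also lies on chromosome 4, and the count of higher genes was 2 with the chromosome median subtracted. Ribosomal protein genes have near-identical copies, and how the authors' counting treated such reads is not known, so the Rpl11 level is uncertain. The count of lower genes was 1, without Hipk2, under a pseudocount of 5, a mean TPM of at least 5, quantile normalization and the chromosome median. The median of the 8 GATOR subunits, through which sestrins act, was -0.45. Of these 8, 1 was lower and 0 higher, beside 15.3% and 8.35% of all measured genes. That call, Wdr59, was lost with a pseudocount of 5, the median ratio, quantile normalization and the chromosome median, where the list medians were -0.33, -0.28, -0.23 and -0.20. Wdr59 was at 8.64 and 3.50 TPM, Nprl3 at 6.46 and 3.82 TPM, Mios at 7.17 and 4.74 TPM and Wdr24 at 13.1 and 9.19 TPM.

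Several of the 10 genes also answer to stress and growth signals other than p53, so 2 further lists were read. For comparison, 15.3% of all measured genes were lower by 2-fold or more and 8.35% were higher. Genes of the integrated stress response, the pathway of the factor Atf4, which is known to induce Sesn2 and Gdf15, showed 3 of 11 measured genes higher, 0 lower and a median of 0.76, with 5 higher once the chromosome median was subtracted. The serine synthesis enzyme Psat1 was at 62.6 and 198 TPM, the asparagine synthetase Asns at 47.4 and 133 TPM, the cystine transporter Slc7a11 at 6.59 and 14.4 TPM, and the stress factor Nupr1 at 45.7 and 88.5 TPM. Sesn2 and Gdf15 were lower in the same library. Immediate early genes, the class of rapid growth factor targets to which Btg2, Plk2 and Plk3 also belong, showed 4 of 14 lower, 3 higher and a median of -0.11 that turned to 0.07 with the median ratio and 0.14 with the chromosome median subtracted. Jun was 6.91-fold higher, reaching 124 TPM in knockout organoids, and Klf4 was at 37.1 and 111 TPM, both on chromosome 4, while Ccn1 was at 644 and 139 TPM and Ier3 at 2229 and 702 TPM. Btg2 and Plk2 were lower and Plk3 was higher. The part of these other signals in the values of the 10 genes was not tested.

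**Figure D5:**
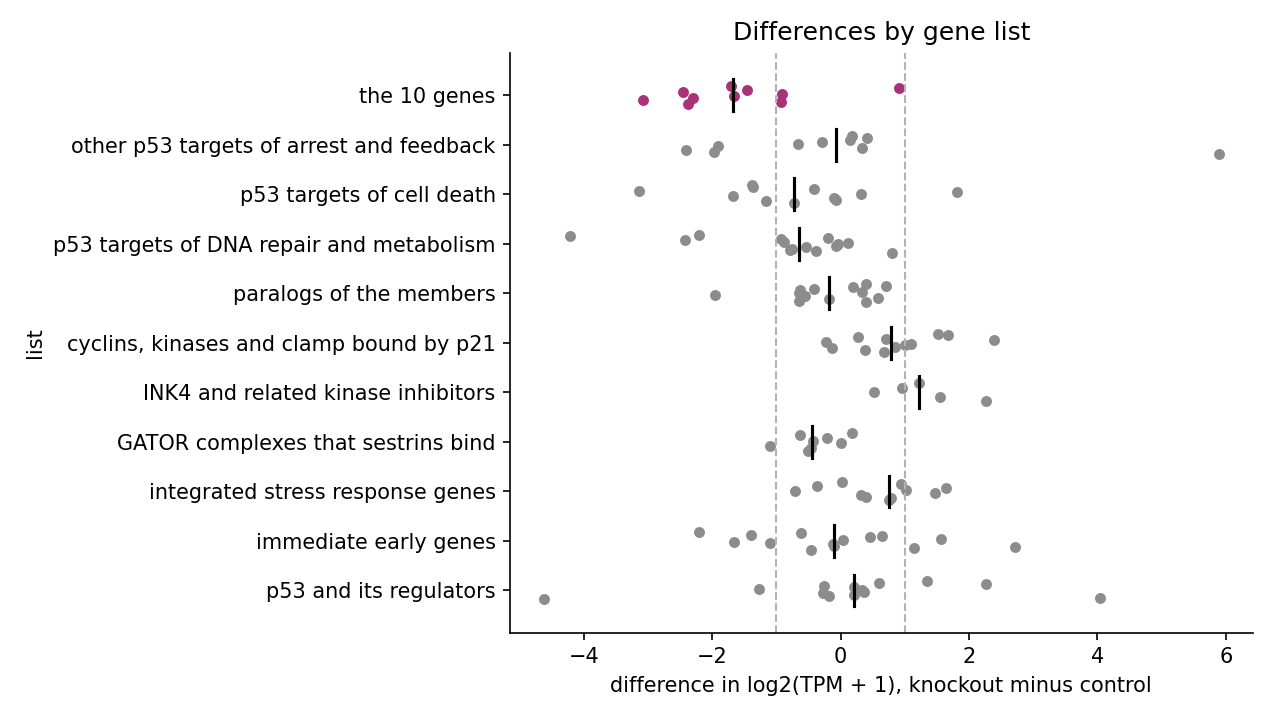
Difference in log2(TPM + 1), knockout minus control, of every measured gene (points) in the set of 10 and in 10 other lists, with the list medians as black bars and dashed lines at 2-fold. The median of the 10 genes lies at -1.68, that of the p53 targets of cell death at -0.72 and that of the INK4 group at 1.22.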

How the data were processed

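The authors deposited TPM for 25668 gene symbols in each of 2 libraries. Per the labels' protocols, directional libraries were sequenced as paired reads of 50 bases, and GRCm39 is the build in the submitters' processing notes. The aligner, counter, strand setting and annotation were not given in the sources used here. Differences are log2(TPM + 1), knockout minus control, for genes whose mean over both libraries reaches 1 TPM. The pseudocount understates changes of low genes, and called means past 2-fold.

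Reads were recovered from TPM by a method devised after the values had been seen. The ratio of a gene's 2 TPM values, divided by 0.297 (the value of 1 read in the control over that in the knockout library), was written as the simplest fraction within 2e-09. The factor common to both reads was the one that gives a whole gene length nearest to that of the longest coding transcript in GENCODE M21. This worked for all 10 genes, and the length equalled that transcript for 6. For Cdkn1a, Zmat3, Sesn1 and Gdf15 it differed (2718 bases against 2080 for Cdkn1a), so their interval widths are less sure. Intervals use these reads; where the fraction failed, reads were estimated from the transcript length. GENCODE M21 and RefSeq (GRCm38.p6) belong to an earlier build than the deposited values and were used for names, chromosome, gene order, length and promoter sequence.

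The 10 genes, 11 other pathway lists and 8 marker lists were chosen with earlier results of these data known. Named genes are the 10, Trp53, measured paralogs, Plk5, and of every other list up to 4 with the largest difference. Read recovery and counts were tested on simulated reads, with each gene given the length of its longest coding transcript. That test cannot cover genes whose length differs from it, such as Cdkn1a, Zmat3, Sesn1 and Gdf15. Alternatives were other pseudocounts, filters, scalings, a 4-fold threshold, chromosome centring and thinning to equal depth. Python 3.11.15, numpy 2.4.6 and scipy 1.17.1 were used.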

Additional observations from a re-analysis of the deposited data

How the results depend on the processing

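The direction of all 10 genes was the same under each alternative that gave a value. A gene's own difference cannot change with the filters or the 4-fold threshold. Under the 7 settings that can move it, 36 of 70 differences moved by less than the counting error, 34 by more and 0 reversed. Sesn2 has no value at a mean TPM of at least 5. Of the 10 genes, 8 were lower by 2-fold or more with a pseudocount of 0.1 (all measured genes: 2057 lower, 1080 higher). With the chromosome median subtracted 8 were also lower (1369 lower and 974 higher of the measured genes with an annotated chromosome). By 4-fold, 4 of the 10 were lower. Plk3 made the count of higher genes 1 with a pseudocount of 0.1 (1.01), the median ratio (1.08), quantile normalization (1.16) and thinning (1.06). The causes of these shifts were not tested. The median of the 10 genes was -1.85 and -1.41 with pseudocounts of 0.1 and 5, -1.53 with the median ratio, -1.50 with quantile normalization and -1.51 with the chromosome median subtracted. A pseudocount of 5 left 930 of all measured genes lower, 563 higher and 12 genes of the other pathway lists lower; a mean TPM of at least 5 left 1091 lower. At 4-fold, 661 of all genes were lower and 267 higher, and 7 and 5 of the pathway lists. A shorter Sesn1 transcript would widen its ratio interval to between 0.197 and 0.309. No paired analysis was possible because each genotype has 1 library and the result comes from no test. Depth limits Sesn1, Sesn2 and Zmat3 most, with 174 to 339 knockout reads.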

Other observations

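Close matches to the p53 response element (no spacer, at most 1 mismatch) stood in the start windows of 5 measured genes. Apart from Ccng1 and Cdkn1a these were Gtse1, Mthfd1 and Rps27l, given here with control and knockout values. Gtse1, a protein of G2 and mitosis, was at 14.7 and 16.3 TPM. Mthfd1, an enzyme of one-carbon metabolism, was at 53.8 and 54.6 TPM, and Rps27l, a ribosomal protein relative, at 1308 and 706 TPM. Gtse1 and Rps27l are also on the lists of p53 targets given above. The same class of sequence match thus went with differences from -3.08 for Ccng1 to 0.14 for Gtse1. Over the 420 measured genes with any allowed match, 80 (19.0%) were at least 2-fold lower and 35 (8.33%) higher, beside 14.8% and 7.97% of the 9017 measured genes with a window. These genes were chosen after their values were seen.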
